A study of Mus musculus with 6 samples.

Results

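The 44 genes described here encode collagens, other matrix proteins, matrix-processing enzymes and surface proteins of mesenchymal (stromal) cells. They were chosen by symbol from a list, and all 44 were rows of the deposited table of 18039 genes. RNA was from bone marrow-derived macrophages (BMDMs), which are macrophages grown from mouse bone marrow cells, here for 7 days with the growth factor M-CSF at 20 ng/mL. There were 3 libraries of the KAT7KO genotype and 3 of the Ctrl genotype, each called a biological replicate in the labels. KAT7 is a histone acetyltransferase, also known as HBO1. The labels do not give the allele, the driver or extent of the deletion, the strain, age or sex of the mice, or whether marrow was pooled. Since separate mice are not stated for the libraries of a genotype, each p-value reflects library-to-library spread, which may be technical. Both genotypes share the tissue, bone marrow, and the M-CSF culture.

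Collagens are secreted proteins built as a helix of 3 chains, and their genes are most active in fibroblasts, osteoblasts and other mesenchymal cells. Fibrillar collagens form the fibres of connective tissue, type IV collagen forms the sheet of basement membranes with laminins, nidogen and perlecan, and type VI collagen forms fine beaded filaments near cells. Marrow holds stromal cells that adhere to plastic, and M-CSF cultures of whole marrow can carry some of them along with the macrophages. Macrophages themselves are known to make fibronectin, thrombospondin-1 and some basement membrane proteins. In bulk RNA, fewer cells of a type and less RNA per cell cannot be told apart.

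Many of the matrix genes were lower in KAT7KO, with the largest falls among those past the threshold in Mamdc2, Col4a2 and Col4a1, and several, Col3a1 among them, were not. With edgeR's quasi-likelihood test and an adjusted p below 0.05 over all genes, 26 of the 43 members tested fell and 0 rose, and 17 did not pass. Of all 12483 genes tested, 13.2% were called lower and 10.7% higher. At an unadjusted p under 0.05 the number of members higher was 0, and DESeq2 and limma-voom also called 0 higher. The median log2 fold change over the 43 members was -0.44, against 0.0023 over all genes tested, and 38 of the 43 values were below 0. The 26 that fell stood at 35.7% to 87.9% of their Ctrl level. In 29 members every KAT7KO value lay below every Ctrl value, and 0 members showed the opposite, against 21.2% and 19.9% of all genes tested. Col8a1, a chain of the network-forming type VIII collagen, was not tested, with 4 counts in Ctrl replicate 3 and 0 in the other 5 libraries.

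Ctrl replicate 1 held the highest Ctrl value of 33 of the 43 members (76.7%), against 37.2% of all genes tested. It was also the library with the steepest rise of level with gene length, a slope of 0.0983 in log2 CPM per doubling of length, while the slopes were -0.0365 to -0.0280 in the KAT7KO libraries and 0.0155 and -0.0213 in Ctrl replicates 2 and 3. The members were longer than most genes, 32 of 43 lying above the median of 4444 bases over all genes tested. Without Ctrl replicate 1, 27 of 43 members were called lower, with a median log2 fold change of -0.35, and 14.4% of all genes. With the length trend of each library removed, 24 of 43 were lower with a median of -0.35. The whole table then gave 1519 lower and 2565 higher genes in place of 1652 and 1335. That removal also moved the median over all genes tested, to 0.0598 from 0.0023. The part of the length trend and of Ctrl replicate 1 in the falls was not tested beyond these values. Library totals ran from 19906726 to 20660090 counts, so that 3 counts were worth 0.145 to 0.152 CPM (scaled counts per 1e6, with TMM library factors). Kat7 itself had 41.4, 42.2 and 38.2 CPM in the KAT7KO libraries, against 73.2, 70.3 and 69.0 CPM in the Ctrl libraries (57.3% of Ctrl, log2 fold change -0.80, adjusted p = 9.63e-07). Which exons were deleted is not stated, so transcripts that keep counted exons may remain in these values.

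**Figure D1:**
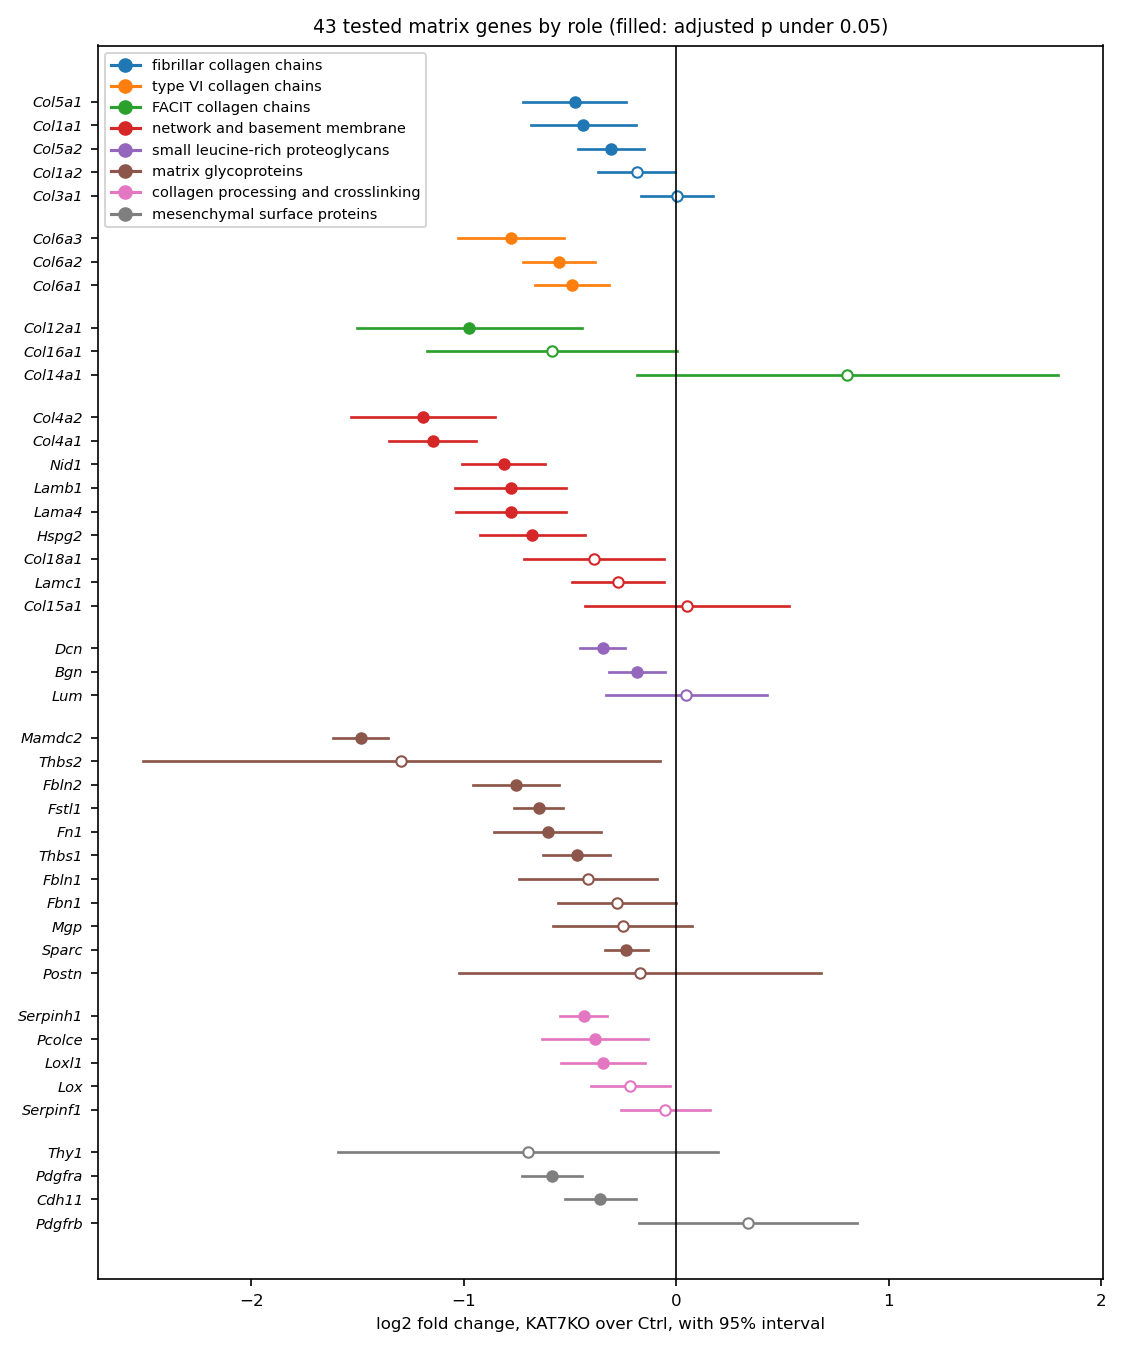
Log2 fold change (KAT7KO over Ctrl) with its 95% interval for the 43 tested matrix genes, grouped and coloured by role, filled where the adjusted p was under 0.05. The 26 filled points all lie left of 0, from -1.49 for Mamdc2 to -0.19 for Bgn.

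The fibrillar chains split. Type I collagen, the main collagen of bone and skin, is made of 2 alpha-1 chains and 1 alpha-2 chain. Col1a1 (ENSMUSG00000001506), its alpha-1 chain gene, had 227, 221 and 229.5 CPM in the KAT7KO libraries, against 369, 288 and 259.5 CPM in the Ctrl libraries. All 3 KAT7KO values lay below the Ctrl values, and Ctrl replicate 1 was far above the other Ctrl libraries. Col1a1 fell (log2 fold change -0.44, SE 0.11, adjusted p = 0.0202), to 73.9% of Ctrl (95% interval 62.2% to 87.8%). Its call was lost with no filter on low counts (adjusted p = 0.127) and with the length trend removed (0.0573). The test for a change over 1.2-fold did not call Col1a1 either (adjusted p = 0.204). Col1a2 (ENSMUSG00000029661), the alpha-2 chain gene, had 279.6, 286 and 286 CPM in the KAT7KO libraries, against 376, 309 and 284 CPM in the Ctrl libraries. Its groups overlapped, since Ctrl replicate 3 lay among the KAT7KO values. Its log2 fold change of -0.19 missed the threshold (95% interval -0.367 to -0.00447, adjusted p = 0.129). With Ctrl replicate 3 left out the value was -0.27 and it passed (adjusted p = 0.00597).

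Col3a1, the chain of type III collagen of soft tissues, gave equal means, with 68.8, 69.9 and 71.3 CPM in the KAT7KO libraries, against 79.6, 68.7 and 61.3 CPM in the Ctrl libraries. The KAT7KO values sat inside the Ctrl range, and the log2 fold change was 0.0029 with a 95% interval of -0.17 to 0.17. Type V collagen nucleates collagen fibrils. Col5a1, its alpha-1 chain gene, had 20.8, 22.9 and 20.8 CPM in the KAT7KO libraries, against 36.3, 27.4 and 26.0 CPM in the Ctrl libraries (log2 fold change -0.48, SE 0.11, adjusted p = 0.0078). Col5a2, its alpha-2 chain gene, had 30.5, 31.1 and 31.0 CPM in the KAT7KO libraries, against 40.3, 35.8 and 38.5 CPM in the Ctrl libraries (log2 fold change -0.31, SE 0.07, adjusted p = 0.00703). Both type V chains fell, with no overlap between the genotypes.

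**Figure D2:**
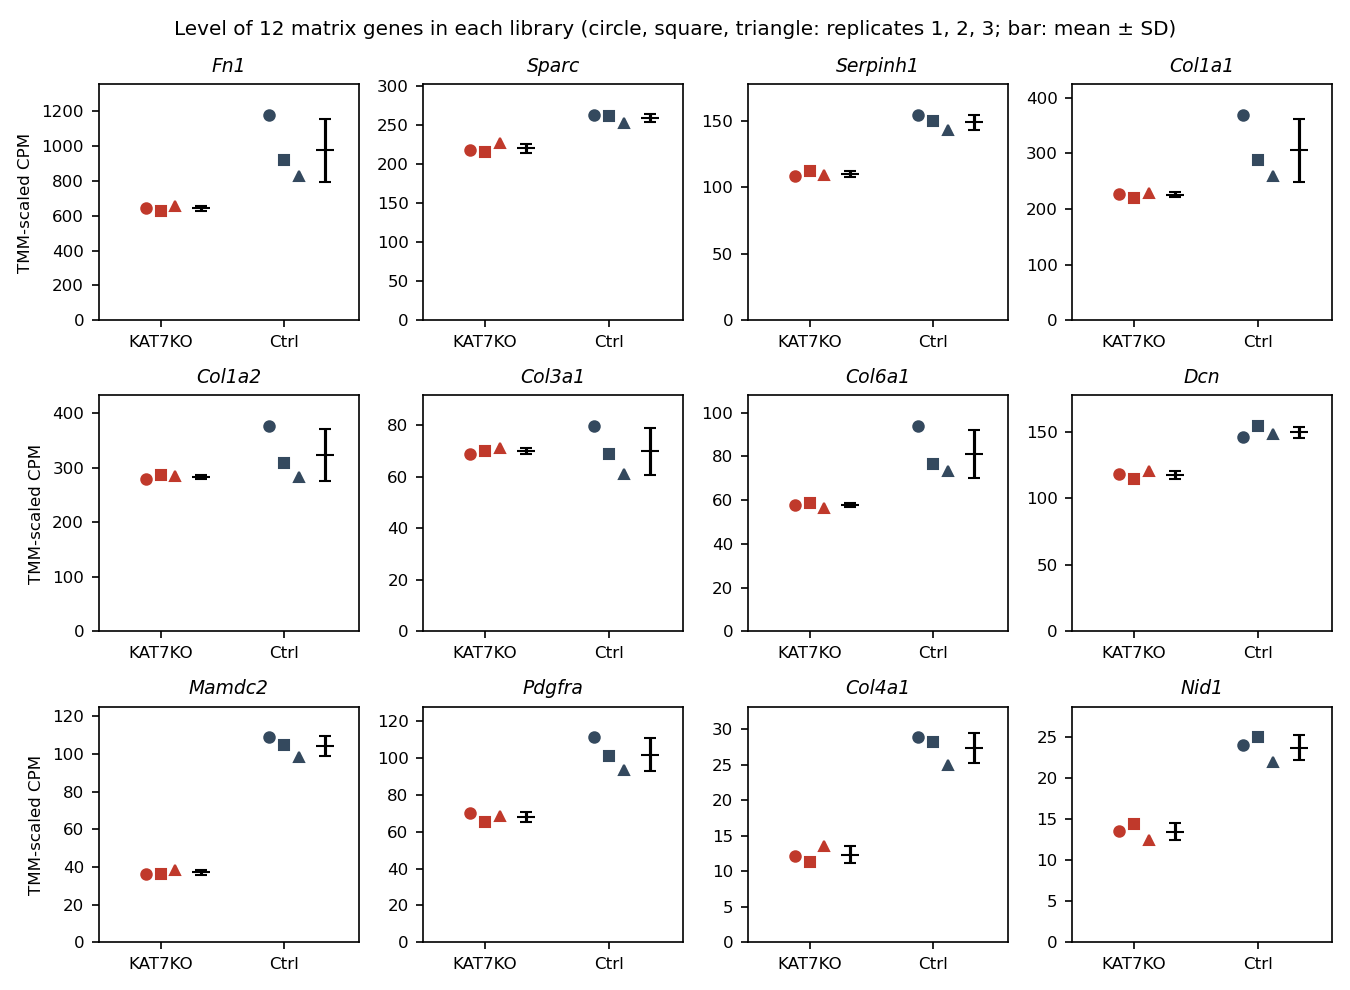
Level of 12 matrix genes in each library, in CPM after TMM scaling, with KAT7KO left of Ctrl and the mean ± SD (n = 3) beside each group. Circle, square and triangle are replicates 1, 2 and 3. Ctrl replicate 1 was the highest library for all of these genes but Dcn and Nid1. The genotypes overlap only for Col1a2 and Col3a1 among these 12.

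All 3 type VI chains fell, and the alpha-3 chain had the lowest value relative to Ctrl. Col6a1 had 58.0, 58.5 and 56.6 CPM in the KAT7KO libraries, against 93.8, 76.4 and 73.3 CPM in the Ctrl libraries (log2 fold change -0.49, SE 0.08, adjusted p = 0.000627). Col6a2 had 44.8, 42.6 and 45.8 CPM in the KAT7KO libraries, against 73.8, 62.1 and 59.3 CPM in the Ctrl libraries (log2 fold change -0.55, SE 0.08, adjusted p = 0.00022). Col6a3, whose long chain is needed for assembly with the other chains, had 12.03, 11.1 and 11.98 CPM in the KAT7KO libraries, against 23.7, 19.4 and 17.1 CPM in the Ctrl libraries (log2 fold change -0.78, SE 0.12, adjusted p = 0.000305). In each of the 3 genes the highest KAT7KO library lay below the lowest Ctrl library, and Ctrl replicate 1 was the highest.

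The FACIT collagens, which decorate the surface of fibrils, were scarce here. Col12a1 had 2.51, 1.94 and 1.57 CPM in the KAT7KO libraries, against 5.22, 3.66 and 2.94 CPM in the Ctrl libraries and fell (log2 fold change -0.97, SE 0.25, adjusted p = 0.0115), though not without KAT7KO replicate 3 (adjusted p = 0.0662). Col16a1 had 1.40, 1.89 and 3.03 CPM in the KAT7KO libraries, against 4.11, 2.69 and 2.69 CPM in the Ctrl libraries, and its log2 fold change of -0.59 did not pass (adjusted p = 0.138). Without KAT7KO replicate 3, its highest KAT7KO value, it passed at 0.046. Col14a1 lay under 1 CPM in every library, with a log2 fold change of 0.80 and a 95% interval of -0.19 to 1.79.

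Basement membrane genes held the largest falls among the collagens. Col4a1 (ENSMUSG00000031502) and Col4a2 (ENSMUSG00000031503) encode the chains of the most widespread type IV collagen. Col4a1 had 12.2, 11.3 and 13.6 CPM in the KAT7KO libraries, against 28.8, 28.2 and 25.0 CPM in the Ctrl libraries. Col4a2 had 6.92, 10.7 and 8.34 CPM in the KAT7KO libraries, against 23.7, 18.8 and 17.0 CPM in the Ctrl libraries. The genotypes were well apart in both genes, the lowest Ctrl value lying above the highest KAT7KO value by more than the whole KAT7KO range. Col4a1 fell to 45.2% of Ctrl (95% interval 39.2% to 52.1%, adjusted p = 1.92e-06) and Col4a2 to 43.7% of Ctrl (95% interval 34.6% to 55.3%, adjusted p = 0.000166). In the RefSeq promoter table of build GRCm38.p6, these genes start 21 bases apart on chromosome 8 and run in opposite directions, Col4a1 on the - strand from position 11312826 and Col4a2 on the + strand from 11312805. The counting is not stated to use strand, so reads from the few bases that both transcripts cover cannot be told apart.

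Laminins are cross-shaped proteins of 3 chains that organise basement membranes. Lamb1, a beta chain gene, had 13.9, 13.8 and 13.7 CPM in the KAT7KO libraries, against 29.2, 21.3 and 20.5 CPM in the Ctrl libraries (log2 fold change -0.78, SE 0.12, adjusted p = 0.000434). Lama4, an alpha chain gene of vessels and mesenchyme, had 12.8, 10.5 and 13.0 CPM in the KAT7KO libraries, against 24.0, 20.8 and 17.6 CPM in the Ctrl libraries (log2 fold change -0.78, SE 0.12, adjusted p = 0.000421). Both fell, and their genotypes did not overlap. Lamc1, the gamma chain gene that most laminins share, had 92.4, 85.0 and 84.9 CPM in the KAT7KO libraries, against 125, 101 and 91.4 CPM in the Ctrl libraries, with KAT7KO replicate 1 above Ctrl replicate 3. It did not pass (log2 fold change -0.27, adjusted p = 0.066), but it did in 5 of the 15 alternatives, among them without Ctrl replicate 1 (-0.14, 0.0263), without Ctrl replicate 3 (-0.37, 0.00204), with DESeq2 (0.0306) and with the filter at 5 CPM (0.0463).

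Nid1 (nidogen-1), which links laminin to type IV collagen, had 13.5, 14.4 and 12.4 CPM in the KAT7KO libraries, against 24.0, 24.9 and 21.9 CPM in the Ctrl libraries (log2 fold change -0.81, SE 0.09, adjusted p = 2.92e-05). Hspg2, the gene of the proteoglycan perlecan, had 56.6, 56.9 and 59.6 CPM in the KAT7KO libraries, against 111, 88.1 and 77.4 CPM in the Ctrl libraries (log2 fold change -0.68, SE 0.11, adjusted p = 0.00168). Both fell without overlap of the genotypes. Col18a1, whose protein holds the endostatin fragment, had 7.32, 7.16 and 7.68 CPM in the KAT7KO libraries, against 11.5, 10.4 and 7.20 CPM in the Ctrl libraries, and Ctrl replicate 3 lay within the KAT7KO range. Its log2 fold change of -0.39 did not pass (adjusted p = 0.0822), but without Ctrl replicate 3 it was -0.56 (0.00336). Col15a1, a related collagen of basement membrane zones, had 2.51, 2.44 and 4.14 CPM in the KAT7KO libraries, against 3.00, 3.03 and 2.74 CPM in the Ctrl libraries, a log2 fold change of 0.05 with a 95% interval of -0.43 to 0.53. Its highest value was in KAT7KO replicate 3.

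The small leucine-rich proteoglycans bind collagen fibrils and growth factors. Dcn (decorin) had 118, 114 and 120.2 CPM in the KAT7KO libraries, against 146, 154 and 148 CPM in the Ctrl libraries and fell to 78.7% of Ctrl (95% interval 73.1% to 84.7%, adjusted p = 0.000218). In Dcn Ctrl replicate 1 was the lowest of its group, unlike in most members. Bgn (biglycan) had 92.2, 89.0 and 82.9 CPM in the KAT7KO libraries, against 108, 98.5 and 94.4 CPM in the Ctrl libraries (log2 fold change -0.19, SE 0.06, adjusted p = 0.042). The Bgn call was lost in more alternatives than any other of the 26. It did not hold without any 1 of KAT7KO replicates 1, 2 and 3 (adjusted p = 0.0618, 0.111 and 0.204), without Ctrl replicate 2 (0.0864), with DESeq2 (0.0679), with limma-voom (0.0502) and with the length trend removed (0.168). Nor did the test for a change over 1.2-fold call Bgn. Lum (lumican) had 4.51, 4.13 and 3.99 CPM in the KAT7KO libraries, against 3.91, 3.32 and 4.99 CPM in the Ctrl libraries, with overlapping groups and a log2 fold change of 0.05 (95% interval -0.33 to 0.43).

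Among the matrix glycoproteins, 6 of 11 fell. Mamdc2 (ENSMUSG00000033207), a secreted proteoglycan with MAM domains, had the lowest log2 fold change and the smallest adjusted p of the 43 tested genes. It had 36.5, 36.6 and 38.5 CPM in the KAT7KO libraries, against 109, 105 and 98.3 CPM in the Ctrl libraries. The spread within each genotype was small beside the gap between them, and Mamdc2 fell to 35.7% of Ctrl (95% interval 32.6% to 39.1%, log2 fold change -1.49, SE 0.06, adjusted p = 1.48e-09). Fbln2 (fibulin-2), a linker of elastic fibres and basement membranes, had 79.0, 70.0 and 78.3 CPM in the KAT7KO libraries, against 149, 123 and 112 CPM in the Ctrl libraries (log2 fold change -0.75, SE 0.09, adjusted p = 0.000182). Fstl1, a secreted follistatin-like glycoprotein of mesenchymal cells, had 72.4, 75.6 and 70.8 CPM in the KAT7KO libraries, against 112, 112 and 118 CPM in the Ctrl libraries (log2 fold change -0.65, SE 0.05, adjusted p = 1.69e-06). In Fstl1 the 3 Ctrl libraries lay close together and replicate 1 was the lowest of them.

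Fn1 (ENSMUSG00000026193), the gene of fibronectin, an adhesive matrix protein also made by macrophages, had 642, 624 and 657 CPM in the KAT7KO libraries, against 1175, 919 and 829 CPM in the Ctrl libraries. All KAT7KO values lay below the Ctrl values, and the Ctrl libraries were widely spread. Fn1 fell (log2 fold change -0.60, SE 0.11, adjusted p = 0.0048), but missed the threshold with no filter on low counts (adjusted p = 0.0647). Thbs1 (thrombospondin-1), which can activate latent TGF-beta, had 116, 107 and 112 CPM in the KAT7KO libraries, against 176, 148 and 139.6 CPM in the Ctrl libraries (log2 fold change -0.47, SE 0.07, adjusted p = 0.00047). Sparc, a collagen-binding glycoprotein, had 219, 216 and 227 CPM in the KAT7KO libraries, against 263, 263 and 253 CPM in the Ctrl libraries (log2 fold change -0.23, SE 0.05, adjusted p = 0.0027). Sparc fell by less than most of the 26, to 85.0% of Ctrl (95% interval 79.2% to 91.2%), with tight values in both genotypes.

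Members of this group that did not pass included Fbn1 (fibrillin-1), the backbone of microfibrils, with 17.4, 18.002 and 14.7 CPM in the KAT7KO libraries, against 24.9, 18.4 and 17.5 CPM in the Ctrl libraries (log2 fold change -0.28, adjusted p = 0.137). Without Ctrl replicate 3 Fbn1 passed (log2 fold change -0.37, adjusted p = 0.0334). Fbln1 (fibulin-1) had 3.61, 4.33 and 4.19 CPM in the KAT7KO libraries, against 5.75, 4.89 and 5.53 CPM in the Ctrl libraries, which did not overlap, but its adjusted p was 0.0616 (log2 fold change -0.41). Mgp, an inhibitor of calcification, had 5.01, 4.92 and 5.46 CPM in the KAT7KO libraries, against 5.32, 5.72 and 7.30 CPM in the Ctrl libraries (log2 fold change -0.25, adjusted p = 0.254). Its highest value was in Ctrl replicate 3. Postn (periostin) and Thbs2 (thrombospondin-2), under 1 CPM on average, had log2 fold changes of -0.17 (95% interval -1.02 to 0.68) and -1.29 (95% interval -2.51 to -0.08), and Thbs2 had 0 counts in KAT7KO replicate 3.

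Genes that process collagen also differed among themselves. Serpinh1 (HSP47), the collagen chaperone of the endoplasmic reticulum, had 108, 112 and 109 CPM in the KAT7KO libraries, against 154, 149 and 143 CPM in the Ctrl libraries and fell to 73.9% of Ctrl (95% interval 68.5% to 79.7%, adjusted p = 3.91e-05). The groups were far apart. Pcolce, an enhancer of the enzyme that trims procollagen, had 10.6, 12.2 and 9.96 CPM in the KAT7KO libraries, against 16.0, 14.2 and 12.5 CPM in the Ctrl libraries (log2 fold change -0.38, SE 0.12, adjusted p = 0.0288). Loxl1, a lysyl oxidase of elastic fibres, had 15.2, 14.3 and 14.4 CPM in the KAT7KO libraries, against 19.2, 19.6 and 16.8 CPM in the Ctrl libraries (log2 fold change -0.34, SE 0.09, adjusted p = 0.0151). Both fell, and both calls turned on single libraries. Pcolce lost its call without KAT7KO replicate 1 (adjusted p = 0.0987), KAT7KO replicate 3 (0.132) or Ctrl replicate 2 (0.0708). Loxl1 lost it without KAT7KO replicate 2 (0.0637), KAT7KO replicate 3 (0.0673) or Ctrl replicate 2 (0.0695).

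Lox, the lysyl oxidase that crosslinks collagen, had 26.5, 25.6 and 28.2 CPM in the KAT7KO libraries, against 34.8, 29.1 and 29.4 CPM in the Ctrl libraries. Its values did not overlap, but it did not pass (log2 fold change -0.22, adjusted p = 0.0847), except without Ctrl replicate 3, where the adjusted p lay just under the threshold at 0.04997. Serpinf1, the gene of the secreted anti-angiogenic factor PEDF, had 15.4, 15.0 and 16.7 CPM in the KAT7KO libraries, against 15.3, 15.3 and 18.1 CPM in the Ctrl libraries, with full overlap and a log2 fold change of -0.05 (95% interval -0.26 to 0.16).

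The surface proteins of mesenchymal cells were split between receptors for platelet-derived growth factor. Pdgfra (ENSMUSG00000029231), the alpha receptor of stromal progenitors, had 69.9, 65.0 and 68.6 CPM in the KAT7KO libraries, against 111, 101 and 93.3 CPM in the Ctrl libraries and fell to 66.7% of Ctrl (95% interval 60.5% to 73.6%, adjusted p = 3.20e-05). Pdgfrb, the beta receptor of pericytes and other mural cells, had 2.06, 2.83 and 3.23 CPM in the KAT7KO libraries, against 2.27, 2.54 and 1.62 CPM in the Ctrl libraries (log2 fold change 0.34, 95% interval -0.18 to 0.85). The Pdgfra values did not overlap between genotypes, and those of Pdgfrb did. Cdh11, a cadherin of mesenchymal cells, had 27.0, 27.6 and 25.7 CPM in the KAT7KO libraries, against 37.2, 33.3 and 32.5 CPM in the Ctrl libraries and fell (log2 fold change -0.36, SE 0.08, adjusted p = 0.00442). Thy1, a surface protein of fibroblasts and T cells, stayed under 1 CPM in all 6 libraries (log2 fold change -0.70, 95% interval -1.59 to 0.20).

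Levels were compared between genes on the deposited FPKM scale, which accounts for gene length. By the mean over 6 libraries the order began with Fn1 (54.5 FPKM in KAT7KO and 84.1 FPKM in Ctrl), Sparc (57.9 FPKM in KAT7KO and 69.0 FPKM in Ctrl), Serpinh1 (44.7 FPKM in KAT7KO and 61.3 FPKM in Ctrl) and Col1a1 (34.2 FPKM in KAT7KO and 46.9 FPKM in Ctrl). Col1a2 followed with 22.7 FPKM in KAT7KO and 26.2 FPKM in Ctrl. Fn1 and Sparc changed places between the genotypes, Sparc being above Fn1 in KAT7KO. At the low end, Postn, Thbs2, Col14a1 and Col8a1 had under 0.2 FPKM in both genotypes.

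The ratio of genes within a library does not depend on library scaling, and 8 ratios were computed. Dividing by gene length does not remove a length trend that differs between libraries, and its part in these ratios was not tested. The groups were apart for 4 ratios and overlapped for the other 4. Col1a1 over Col1a2 was 1.54, 1.46 and 1.52 in the KAT7KO libraries and 1.86, 1.77 and 1.73 in the Ctrl libraries. Col3a1 over Col1a1 was 0.203, 0.212 and 0.208 in KAT7KO and 0.144, 0.159 and 0.158 in Ctrl. Neither pair of groups overlapped, and in both ratios Ctrl replicate 1 was the Ctrl library farthest from the KAT7KO libraries. Lamb1 over Lamc1 was 0.125, 0.136 and 0.135 in KAT7KO and 0.194, 0.177 and 0.187 in Ctrl. Col6a3 over Col6a1 was 0.0759, 0.0697 and 0.0775 in KAT7KO and 0.0924, 0.0932 and 0.0854 in Ctrl. These 4 ratios reached p = 0.1 in a two-sided exact permutation test on their log2 values, the smallest that 3 against 3 libraries allow (0.2 with Benjamini-Hochberg adjustment over the 8). The groups overlapped for Col4a1 over Col4a2 (1.56, 0.932 and 1.45 in KAT7KO, 1.08, 1.33 and 1.303 in Ctrl, exact p = 0.8) and for Col6a1 over Col6a2 (exact p = 0.2), Col5a1 over Col5a2 (exact p = 0.3) and Dcn over Lum (exact p = 0.2).

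**Figure D3:**
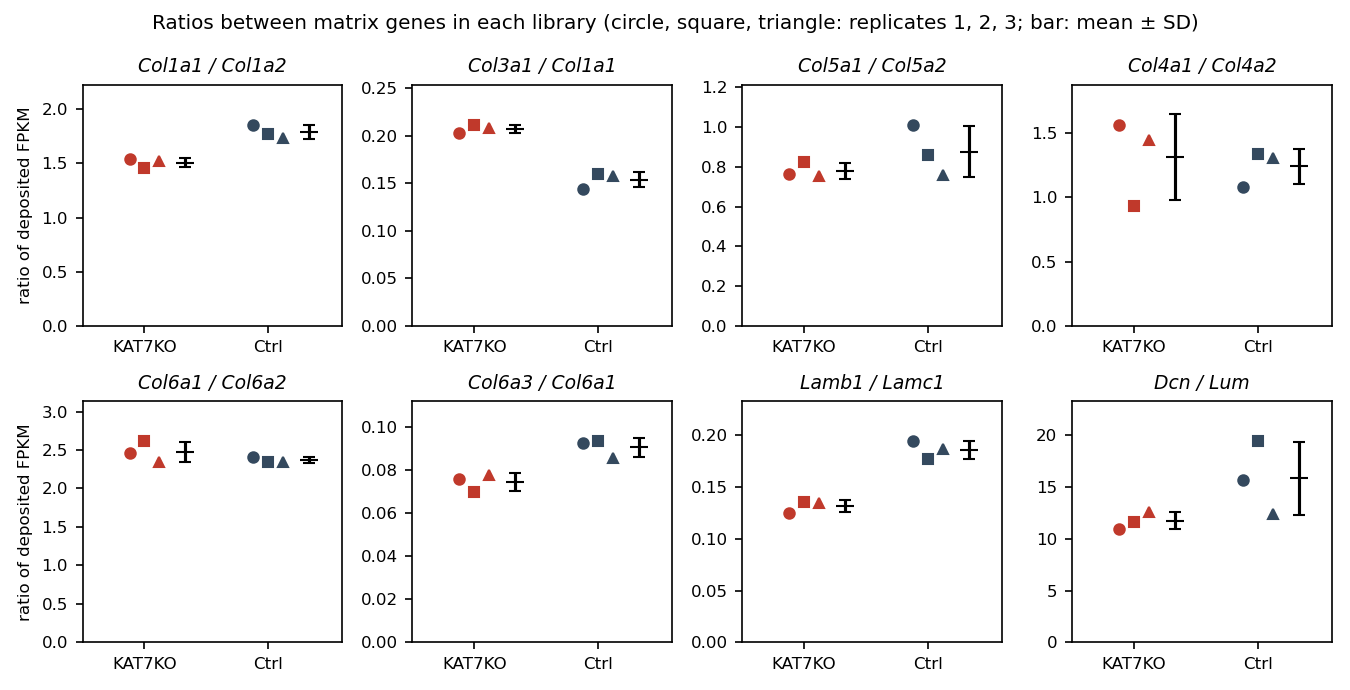
Ratio of deposited FPKM values between matrix genes in each library, KAT7KO left of Ctrl, with mean ± SD (n = 3). The genotypes do not overlap for Col1a1/Col1a2, Col3a1/Col1a1, Col6a3/Col6a1 and Lamb1/Lamc1, and they overlap for the other 4 ratios.

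As a measure of stromal RNA in each culture, the CPM was summed over the 34 members that were not listed as macrophage products too. Which cells made the RNA of these 34 was not tested, so macrophage RNA may be part of it. The sum was 1305, 1289 and 1313 CPM in KAT7KO replicates 1 to 3 and 1971, 1694 and 1582 CPM in Ctrl replicates 1 to 3. All KAT7KO sums lay below all Ctrl sums, and the Ctrl libraries were spread far more widely. The KAT7KO mean of 1302 ± 12.6 CPM was 74.5% of the Ctrl mean of 1749 ± 201 CPM (SD, n = 3 each). This was 0.130% of all scaled counts in KAT7KO and 0.175% in Ctrl. No test was made on the sum, because its members were chosen with results of these data known. Col1a1 and Col1a2 are a large share of it, and without them the KAT7KO sum was 70.7% of Ctrl.

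The 10 members listed as also made by macrophages were Fn1, Thbs1, Sparc, Lamb1, Lamc1, Nid1, Hspg2, Col18a1, Serpinh1 and Fstl1. This division of the members was not tested in these data. The 10 summed to 1341, 1311 and 1355 CPM in the KAT7KO libraries and 2181, 1837 and 1701 CPM in the Ctrl libraries, a ratio of means of 70.1%. Of these 10, 8 fell, and of the other 33 tested 18 fell. Their median log2 fold changes were -0.54 and -0.38, and the difference between these groups was not tested. By role, the KAT7KO sum as a share of the Ctrl sum was lowest for the FACIT collagens (64.0%), the network and basement membrane genes (66.2%) and the matrix glycoproteins (67.1%). It was 68.4% for type VI collagen, 70.4% for the surface proteins, 77.7% for collagen processing, 82.5% for the fibrillar chains and 82.7% for the small proteoglycans.

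**Figure D4:**
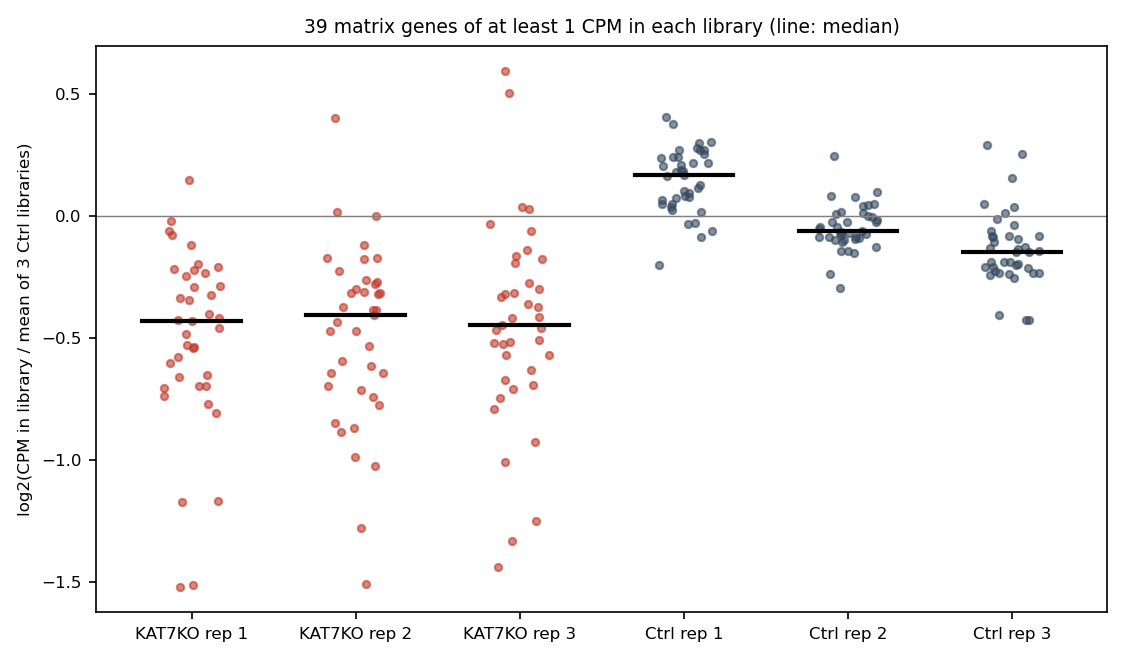
Log2 ratio of the level in each library to the mean of the 3 Ctrl libraries, for the 39 members of at least 1 CPM on average, with the median as a line. The medians are -0.43, -0.41 and -0.45 in KAT7KO replicates 1 to 3 and 0.17, -0.06 and -0.15 in Ctrl replicates 1 to 3.

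The replicates of KAT7KO were closer to each other than those of Ctrl in these genes. The median coefficient of variation of the 43 members was 4.92% in KAT7KO and 14.7% in Ctrl, against 5.90% and 8.83% over all genes tested. Relative to the Ctrl mean, 38, 36 and 35 of the 39 members of at least 1 CPM were below 0 in KAT7KO replicates 1, 2 and 3. In Ctrl replicates 1, 2 and 3 these numbers were 5, 29 and 33.

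The remaining collagen genes were sparse. Of 28 listed collagen chain genes outside the 44, 19 were rows of the table and 9 had enough counts to be tested, of which 2 fell and 0 rose. Those were Col4a5, a further type IV chain (8.02 ± 0.342 CPM in KAT7KO and 11.4 ± 0.803 CPM in Ctrl, SD, n = 3), which fell by 0.51 on the log2 scale (adjusted p = 0.00378), and Col24a1, a minor fibrillar chain (log2 fold change -0.44, adjusted p = 0.029). The median log2 fold change of the 9 was -0.36. The shares of all genes tested, 13.2% lower and 10.7% higher, are the background for this list and each list below. Other laminins and basement membrane partners gave 5 lower and 0 higher of 6 tested, with a median of -0.69. They were Lamb2 (-0.66), Lama5 (-0.55), Nid2, the partner of nidogen-1 (-0.72), Agrn, a heparan sulfate proteoglycan (-0.72), and Dag1, the laminin receptor dystroglycan (-0.33, 109 ± 2.96 CPM in KAT7KO and 137 ± 15.9 CPM in Ctrl, SD, n = 3).

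The enzymes and chaperones of collagen synthesis went both ways. Of 23 tested, 7 fell, 3 rose and 13 did not pass, with a median log2 fold change of -0.15. Of all genes tested 13.2% were lower and 10.7% higher, so the 3 rises were near the share of all genes. Those that fell were P4ha2, a prolyl hydroxylase subunit (-0.82), Plod2, which hydroxylates the lysines used for crosslinks (-0.66), Fkbp10, a collagen chaperone (-0.48), Loxl2, a lysyl oxidase (-0.46), Adamts2, which removes procollagen ends (-0.45), P3h4, a partner of lysyl hydroxylase (-0.41), and P4hb, the disulfide isomerase subunit of prolyl hydroxylase (-0.17). Those that rose were Tmem38b, a cation channel of the endoplasmic reticulum (0.41), P3h3 (0.29) and Ppib, the prolyl isomerase cyclophilin B (0.28). P4hb and Ppib are general factors of the endoplasmic reticulum and were abundant, at 659 ± 4.66 CPM in KAT7KO and 743 ± 8.50 CPM in Ctrl for P4hb and 154 ± 5.40 CPM in KAT7KO and 127 ± 12.2 CPM in Ctrl for Ppib (SD, n = 3).

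Receptors for collagen and fibronectin gave 7 lower and 2 higher of 13 tested, with a median log2 fold change of -0.17. The collagen receptor kinase genes Ddr2 (-0.58) and Ddr1 (-0.43) fell, as did Mrc2, an endocytic collagen receptor of fibroblasts (-0.52), the integrin chain genes Itgav (-0.40) and Itga5 (-0.23), the thrombospondin receptor Cd36 (-0.44) and the hyaluronan receptor Cd44 (-0.17). Itga4 rose by 0.55 and Itgb1, the beta chain that most collagen- and fibronectin-binding integrins share, by 0.19 on the log2 scale.

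**Figure D5:**
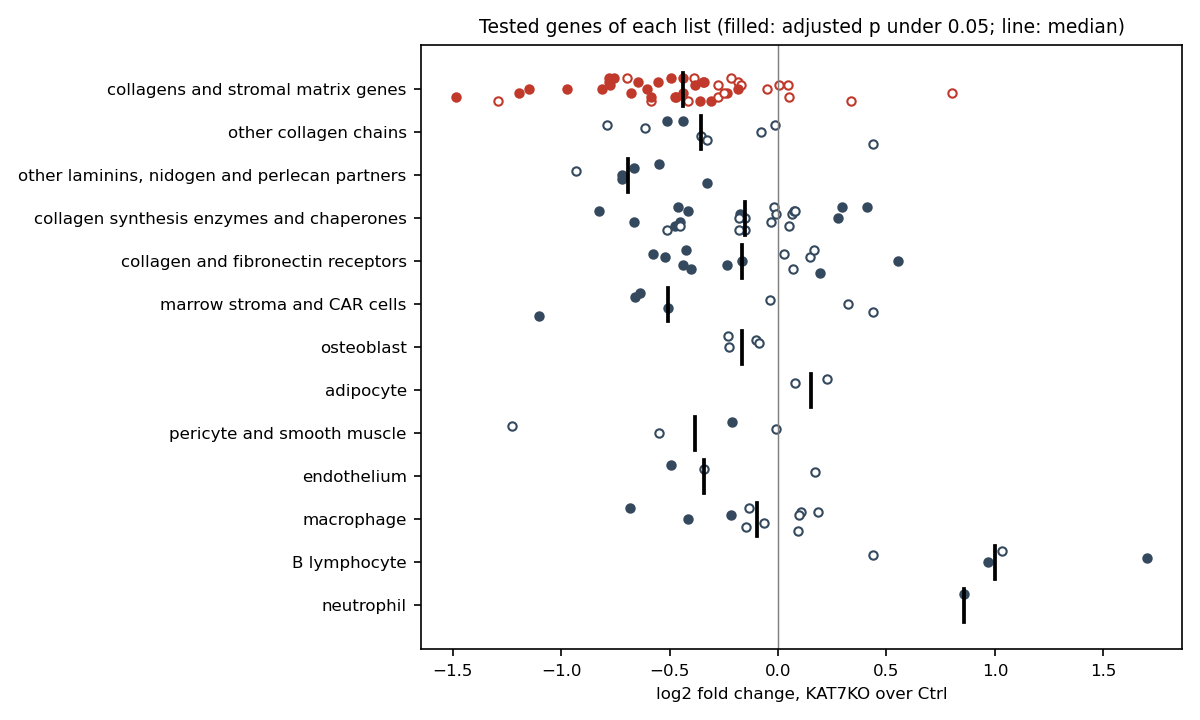
Log2 fold change (KAT7KO over Ctrl) of the tested genes of each list, filled where the adjusted p was under 0.05, with the median of each list as a line. The median of the 43 matrix genes is -0.44 and that of the marrow stroma list is -0.51.

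Genes that mark the cells of a marrow culture were read in the same libraries. The macrophage list was abundant in every library, 10 of 10 tested, with summed levels of 23107 to 23882 CPM in KAT7KO and 28153 to 38039 CPM in Ctrl. Most of that sum was Lyz2, the lysozyme gene (17980.5 ± 401 CPM in KAT7KO and 28852 ± 5251 CPM in Ctrl). Cd68 stood at 2802 ± 28.4 CPM in KAT7KO and 2621 ± 13.8 CPM in Ctrl, Tyrobp at 916 ± 18.2 CPM in KAT7KO and 805 ± 103 CPM in Ctrl and Adgre1, the gene of F4/80, at 639.8 ± 16.4 CPM in KAT7KO and 594 ± 14.8 CPM in Ctrl (SD, n = 3). In that list Lyz2 and Itgam fell (-0.68 and -0.42 on the log2 scale), and 0 genes rose.

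The list for marrow stroma had 12 of its 15 genes in the table and 7 tested, of which 4 fell and 0 rose, with a median of -0.51. Its summed level was 28.0 to 29.8 CPM in the KAT7KO libraries and 40.6 to 43.2 CPM in the Ctrl libraries. Cxcl12, the chemokine that holds blood progenitors in the marrow, had 9.23, 9.20 and 9.10 CPM in the KAT7KO libraries, against 13.4, 14.2 and 15.2 CPM in the Ctrl libraries (log2 fold change -0.64, SE 0.10, adjusted p = 0.000414). Kitl (stem cell factor) had 8.47, 6.96 and 8.09 CPM in the KAT7KO libraries, against 13.4, 11.9 and 11.8 CPM in the Ctrl libraries (log2 fold change -0.66, SE 0.11, adjusted p = 0.000952). In the summed level Ctrl replicate 1 was the highest, by less than 3 CPM. Grem1, a BMP antagonist, and Twist1, a mesenchymal transcription factor, fell by 1.10 and 0.51 on the log2 scale. The 3 that did not pass, named after their values were seen, were the mesenchymal transcription factor genes Prrx1 (-0.04), Prrx2 (0.32) and Osr1 (0.44). Angpt1, Twist2, Foxc1, Tcf21 and Ebf3 were at or under 0.130 CPM in both genotypes. Lepr, Meox1 and Meox2 of this list were not in the table. The part of the stromal markers in the falls of the matrix genes was not tested.

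None of the 4 tested osteoblast genes passed, and the list summed to 4388 to 4603 CPM in KAT7KO and 4546 to 4969.9 CPM in Ctrl. Spp1 (osteopontin), also a macrophage product, stood at 4498 ± 108 CPM in KAT7KO and 4776 ± 218 CPM in Ctrl, and Runx2, the osteoblast transcription factor, at 6.25 ± 0.866 CPM in KAT7KO and 7.32 ± 1.26 CPM in Ctrl (SD, n = 3). Alpl, the alkaline phosphatase gene, had a log2 fold change of -0.10. The osteoblast genes Sp7, Bglap, Ibsp and Dmp1 were not in the table. Of the adipocyte list, Fabp4 (0.23) and Pparg (0.08), which macrophages also express, did not pass, and Plin1 had 0.0332 CPM in KAT7KO and 0 CPM in Ctrl on average. That list summed to 458 to 466 CPM in KAT7KO and 348 to 431 CPM in Ctrl. Its genes Adipoq, Cidec, Lep and Cfd were not in the table.

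Among 9 genes of pericytes and smooth muscle 4 were tested and 1 fell, Acta2 (smooth muscle actin), with 34.5 ± 1.68 CPM in KAT7KO and 40.1 ± 2.37 CPM in Ctrl (SD, n = 3; log2 fold change -0.21, adjusted p = 0.0461). Des (desmin) had a log2 fold change of -0.01, Mylk of -0.55 and Cspg4 of -1.23, and none of the 3 passed. Rgs5, a pericyte marker, had 0 counts in all 3 KAT7KO libraries and 0, 3 and 0 counts in the Ctrl libraries, too few for a test. The list summed to 71.5 to 76.5 CPM in KAT7KO and 78.4 to 82.6 CPM in Ctrl. Of the endothelial list 3 were tested and Kdr, the VEGF receptor gene, fell (12.9 ± 0.454 CPM in KAT7KO and 18.2 ± 2.86 CPM in Ctrl, SD, n = 3; log2 fold change -0.49). Vwf stood at 41.8 ± 1.02 CPM in KAT7KO and 37.2 ± 3.98 CPM in Ctrl, with Flt1 and Cdh5 under 1 CPM on average in both genotypes and Pecam1, a defining endothelial gene, at 0.134 CPM in KAT7KO and 0.147 CPM in Ctrl. The endothelial list summed to 55.7 to 57.4 CPM in KAT7KO and 52.1 to 63.4 CPM in Ctrl. Its genes Emcn and Robo4 were not in the table.

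Some genes of the B lymphocyte list rose, as did the 1 tested gene of the neutrophil list. Of 4 tested B lymphocyte genes 2 rose, Bank1 (0.97) and Ms4a1 (1.70), while Cd79a (1.03) and Cd79b (0.44) did not pass, and the list summed to 8.16 to 9.28 CPM in KAT7KO and 4.16 to 5.57 CPM in Ctrl. Bank1 averaged 3.34 CPM in KAT7KO and 1.71 CPM in Ctrl. Ms4a1 rested on few counts, 24, 23 and 36 in the KAT7KO libraries and 12, 9 and 5 in the Ctrl libraries. S100a8, the tested gene of the neutrophil list, rose, with 10.3, 11.2 and 11.5 CPM in the KAT7KO libraries, against 5.90, 6.16 and 6.17 CPM in the Ctrl libraries (log2 fold change 0.86, SE 0.11, adjusted p = 0.00011). Elane, Camp and Mpo were under 1 CPM in every library. The neutrophil genes S100a9, Ly6g and Retnlg were not in the table.

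Promoter sequences from RefSeq (build GRCm38.p6, 250 bases before to 50 after each start) were found for 27 of the 44 genes, in 31 windows. Both strands were searched for TATAAA (the TATA box), CCAAT (the CCAAT box), GGGCGG (a GC box) and TGANTCA (the AP-1 site). Neighbouring matches can share letters at their ends. GGGCGG was in 13 of 17 windows of genes that fell and 6 of 14 windows of the other members, against 35.7% of all 32851 windows. TATAAA was in 0 of 17 and 3 of 14, against 13.6% of all. CCAAT was in 4 of 17 and 6 of 14, against 37.4%, and TGANTCA in 1 of 17 and 0 of 14, against 7.80%. The windows are not independent. Those of Col4a1 and Col4a2 share 78 bases, and the only GC box of Col4a1 lies in them. Col6a2, Col18a1, Fbln1 and Postn each gave more than 1 window. The windows of the members had a median GC content of 60.3%, against 52.7% for all. GC content was not compared between the windows of genes that fell and the other members. A match describes the letters of the window and is not evidence of binding.

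The 120 bases before the start are shown for Nid1 and Fstl1, which fell, and for the fibrillar chain genes Col1a2 and Col3a1, which did not pass, chosen after their values were seen to set both kinds side by side. They run 5′ to 3′ on the strand of the gene, and capitals mark the letters of the TATA box, the CCAAT box or the GC box on either strand.
Nid1 at chr13:13437482-13437601 (+ strand): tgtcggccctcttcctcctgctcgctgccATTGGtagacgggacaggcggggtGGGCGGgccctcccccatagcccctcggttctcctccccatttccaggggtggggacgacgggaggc
Fstl1 at chr16:37776935-37777054 (+ strand): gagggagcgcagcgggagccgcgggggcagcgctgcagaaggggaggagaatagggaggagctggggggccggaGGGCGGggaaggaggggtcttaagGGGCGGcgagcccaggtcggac
Col1a2 at chr6:4505498-4505617 (+ strand): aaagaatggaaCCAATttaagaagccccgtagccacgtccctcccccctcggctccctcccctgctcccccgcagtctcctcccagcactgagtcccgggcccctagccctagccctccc
Col3a1 at chr1:45311418-45311537 (+ strand): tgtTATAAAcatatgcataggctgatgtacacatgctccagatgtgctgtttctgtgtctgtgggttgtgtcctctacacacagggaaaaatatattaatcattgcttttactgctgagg
In these stretches Nid1 held 1 GC box and 1 CCAAT box on the opposite strand. Fstl1 held 2 GC boxes and Col1a2 held 1 CCAAT box. Col3a1 held 1 match to the letters TATAAA at position -117, near the far end of the stretch. The full window of Col1a2 also held 2 GC boxes farther upstream than the stretch shown, so GC boxes were not limited to genes that fell.

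Of the 44 genes, 25 in the authors' deposited table had an adjusted p below 0.05, all with a negative log2 fold change, and 24 of these were among the 26 called here. In the authors' deposited table the log2 fold change was -1.48 for Mamdc2, -1.14 for Col4a1 and 0.01 for Col3a1.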

How the data were processed

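RNA was sequenced in 6 libraries, 3 KAT7KO and 3 Ctrl, grouped by the sample titles. The deposited table holds whole-number raw counts per gene. It also holds the authors' values named FPKM in the file headers, a unit that scales to gene length and library size, and the authors' deposited log2 fold change, p-value and adjusted p-value. The submitters' processing notes list FastQC, fastp, HISAT2, featureCounts and DESeq2, with the mouse build GRCm39. Tool versions, the strand setting and the handling of multi-mapped reads were not given in the sources used here.

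Of 18039 genes, 12483 passed filterByExpr and were tested with edgeR 4.0.16 (R 4.3.3, TMM, robust glmQLFit, glmQLFTest, no block, Benjamini-Hochberg over all genes tested, threshold 0.05). The SE is the size of the log2 fold change over the square root of F. Gene length was derived from count and FPKM. Library totals gave a floor of 3 counts at 0.145 to 0.152 CPM, which covers counting error only. Replicate pairs gave a chi-square per gene of 2.70 to 3.51 within KAT7KO and 3.79 to 20.1 within Ctrl, above the 1 of sampling noise, so each library counted once.

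The members and lists were chosen with earlier results of these data known. Members of at least 1 CPM or past the threshold are given by library, the others by summary. Of each pathway list all genes past the threshold are named, and of each cell list up to 4 by mean level, except some list genes that are not reported here. Alternatives were DESeq2 1.42.0, DESeq2 size factors, upper-quartile factors, no filter, 5 CPM in 3 libraries, limma-voom (limma 3.58.1), a replicate block, glmTreat for a change over 1.2-fold, and fits without each library in turn. Removing a loess trend (span 0.5) on gene length, and the sum without Col1a1 and Col1a2, were added after seeing the data. The fit was tested on simulated data.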

Additional observations from a re-analysis of the deposited data

How the results depend on the processing

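Of the 26 members called lower, 15 passed in all 15 alternatives, 20 in all but the test for a change over 1.2-fold, and none changed sign. That test left 17 members lower, 641 genes lower and 199 higher in the whole table, and 11 lower and 4 higher genes in the pathway and cell lists, in place of 30 and 8. Leaving out 1 library gave 23 to 31 members lower. The whole table then gave 1071 to 1820 lower and 663 to 1708 higher genes, the lower count being 1071 without KAT7KO replicate 2 or 3, and the higher count 715, 663 and 740 without KAT7KO replicates 1, 2 and 3 and 834 without Ctrl replicate 2. The lists gave 18 to 32 lower genes (18 without KAT7KO replicate 1) and 6 to 14 higher (14 without Ctrl replicate 1). With the length trend removed 2565 genes were higher, and 15 in the lists, while the median over all genes tested moved to 0.0598. The causes were not tested. The log2 ratio of the summed stromal members was -0.43 and stayed between -0.50 and -0.33 over its alternatives.

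The replicate numbers did not pair the libraries, with correlations of deviations of -0.00436, 0.00587 and 0.0213 for the pairs numbered 1, 2 and 3. KAT7KO replicate 1 correlated best with Ctrl replicate 2 (0.0171), so not every library did so with its own number. With the replicate block 27 members were lower, the added one being Lamc1 (adjusted p = 0.0152), 1522 genes lower and 1290 higher, and 26 and 9 genes of the lists. The ratio of the sum within numbers was -0.42 on the log2 scale.

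Among members of a few counts, such as Thbs2, Postn, Thy1 and Col14a1, the depth leaves wide intervals.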
